A study of Mus musculus with 2 samples.

Results

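The genes described here encode molecular chaperones, their cochaperones of the J protein family, protein disulfide isomerases and lectins of the endoplasmic reticulum (ER), and the sensors and transcription factors of the ER stress response. They were chosen by symbol alone, namely the Hspa, Hspb, Hspd, Hspe, Hsph, Hsp90, Dnaja, Dnajb and Dnajc families, the subunits of the cytosolic chaperonin CCT, Pdia3 to Pdia6, Calr, Canx, Hyou1, Sdf2l1, Atf4, Atf6, Ddit3, Xbp1, Ern1 and Eif2ak3. This gave 91 of the 16302 genes of the joined tables, of which 88 were listed in WT, 90 in β-arr1 KO and 87 in both. A level of 1 FPKM or more (mapped fragments scaled by transcript length and by library size) was reached in either library by 85 of them, 83 of which were listed in both tables. The other 6 genes (Cct6b, Cct8l1, Dnajc22, Dnajc6, Hspb3 and Hspb9) stayed under this minimum in both libraries and were not compared.

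RNA-seq was performed on astrocytes grown in serum-containing medium from the dentate gyrus (DG) of C57BL/6 mice. One genotype was wild type (WT), the other a knockout of β-arrestin 1 (β-arr1 KO), a scaffold and regulator of G-protein coupled receptors. The labels call the cDNA pooled and give neither the age nor the sex of the mice. There was 1 library per genotype, so no test of genotype was possible, and every interval below is a 95% interval of counting error that says nothing about the spread between mice or cultures.

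Chaperones bind unfolded or partly folded proteins and keep them from aggregating. HSP70 proteins do this in cycles of ATP hydrolysis that J proteins start and nucleotide exchange factors of the HSP110 type reset, HSP90 acts later on nearly folded clients, and the chaperonins enclose a whole protein in a barrel. In the ER, unfolded proteins engage the sensors encoded by Ern1 (IRE1), Eif2ak3 (PERK) and Atf6, which raise ER chaperones through Xbp1 and Atf6 and slow translation while raising Atf4 and Ddit3 (CHOP). The cytosolic counterpart, the heat shock response, is driven by heat shock factor 1. Astrocytes secrete many proteins and are known for high levels of small heat shock proteins under stress.

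Arrb1, the targeted gene, had 7.62 FPKM in WT against 2.72 FPKM in KO, a ratio of 0.358, so the transcript was lower in the library labelled KO but not absent. Estimated depth was 9.38 M mapped fragments in WT and 9.52 M in KO. All 10 astrocyte markers were listed in both libraries and summed to 396 FPKM in WT against 419.9 FPKM in KO, with Gfap at 189 FPKM and 192 FPKM. Of these markers 8 were higher in KO and 4 were above 3/2 (Aqp4, S100b, Aldoc and Slc1a2). Markers of other cells were listed too, with sums in WT and KO of 419 and 334 FPKM for microglia and 81.9 and 104 FPKM for neurons. The oligodendrocyte lineage summed to 52.8 and 69.7 FPKM, and endothelium to 40.8 and 28.6 FPKM. Most of the neuron sum was Tubb3 (44.7 and 59.8 FPKM) and Stmn2 (36.6 and 43.4 FPKM). Rbfox3, Snap25, Syt1 and Nefl were under 1 FPKM in both libraries. Most of the endothelial sum was Cdh5 (31.8 and 16.1 FPKM), which was below 2/3. Of the 5 endothelial markers 2 were higher in KO, Pecam1 (1.72, above 3/2) and Kdr (1.44). Mural and fibroblast markers summed to 2911 FPKM in WT and 2710 FPKM in KO, most of it Acta2. Of the 4 listed none was higher in KO and 3 were below 2/3, namely Col1a1 (0.564), Dcn (0.136) and Rgs5 (0.615). Striated muscle markers summed to 40.9 FPKM in WT against 158 FPKM in KO. Among sex-linked genes, 4 Y-linked ones summed to 8.44 FPKM in KO and were not listed in WT. Xist, by contrast, was listed in both libraries, at 39.4 FPKM (WT) against 29.7 FPKM (KO). Sex-linked transcripts thus differed along with genotype, and the part of sex in the levels below was not tested. In such bulk libraries, fewer cells of a type and less RNA per cell cannot be told apart.

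Both stress responses are known to act through short promoter sequences, which were searched in the chosen genes so that the levels below can be read beside them. RefSeq promoters (GRCm38.p6, from 250 bases before to 50 bases after each start, both strands) were found for 75 of the 91 genes. The ER stress element, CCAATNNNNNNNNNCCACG, matched in 6 of the 75 promoters (8%) and in 37 of 27025 genes with a promoter (0.137%). All 6 were among the 14 ER-resident chaperones with a promoter (42.9%). Each match is shown 5′ to 3′ with the fixed bases in capitals, since the genes that carry it include the highest of the ER chaperones.
Hspa5, chr2:34772025-34772043, plus strand: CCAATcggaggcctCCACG
Hsp90b1, chr10:86705533-86705551, plus strand: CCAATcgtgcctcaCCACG
Hsp90b1, chr10:86705638-86705656, minus strand: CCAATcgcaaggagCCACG
Calr, chr8:84847075-84847093, plus strand: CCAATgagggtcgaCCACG
Canx, chr11:50325800-50325818, minus strand: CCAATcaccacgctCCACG
Pdia6, chr12:17266491-17266509, plus strand: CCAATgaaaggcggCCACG
Dnajc3, chr14:118937827-118937845, plus strand: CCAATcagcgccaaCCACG

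In Hspa5, which encodes BiP, the ER form of HSP70, the match began 65 bases before the start. It is in capitals in the 250 bases that precede the start (chr2:34771840-34772089, plus strand, GRCm38.p6).
Hspa5: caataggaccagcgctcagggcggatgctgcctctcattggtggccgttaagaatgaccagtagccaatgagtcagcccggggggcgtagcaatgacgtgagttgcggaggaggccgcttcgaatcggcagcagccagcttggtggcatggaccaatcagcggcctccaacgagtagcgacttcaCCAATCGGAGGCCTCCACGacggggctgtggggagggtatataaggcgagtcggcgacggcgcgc

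The heat shock element was searched as 3 alternating units with 2 bases between units, GAANNTTCNNGAA or TTCNNGAANNTTC. It matched in 4 of the 75 promoters (5.33%), against 179 of 27025 (0.662%), and these were Dnajb6, Hsph1, Hspd1 and Hspe1. Among 9 genes with a promoter on the list of heat-inducible chaperones, 3 had a match (33.3%). Units are in capitals. All 4 genes are shown, since Dnajb6 was the J protein gene farthest from equal levels and the others are known to be heat-inducible.
Dnajb6, chr5:29735852-29735864, plus strand: GAAtcTTCcgGAA
Hsph1, chr5:149636288-149636300, plus strand: GAActTTCcaGAA
Hspd1 and Hspe1, chr1:55088059-55088071, minus strand: GAAggTTCtaGAA
Hspd1 and Hspe1, chr1:55088064-55088076, plus strand: GAAccTTCcgGAA

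Hspd1 and Hspe1 encode the barrel and the lid of the mitochondrial chaperonin and are transcribed in opposite directions. The 215 bases between an annotated start of Hspd1 and the start of Hspe1 (chr1:55087933-55088147, plus strand, GRCm38.p6) contain both overlapping matches, in capitals.
Hspd1 and Hspe1: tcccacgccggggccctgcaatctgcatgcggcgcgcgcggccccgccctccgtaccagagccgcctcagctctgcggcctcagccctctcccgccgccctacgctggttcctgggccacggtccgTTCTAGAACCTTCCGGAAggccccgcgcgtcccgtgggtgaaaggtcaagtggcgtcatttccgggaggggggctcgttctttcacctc
The amino acid response type site TGATGNAA, bound by Atf4 in known targets, was present in 1 of the 75 promoters (1.33%, Hspa14) and in 4.51% of all. These matches describe the letters of the windows only.

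The chosen genes were highly expressed. Together they summed to 5882 FPKM in WT, 1.57% of all FPKM, and to 5920 FPKM in KO, 1.59%. Their median level was 25.5 FPKM (WT) and 25.6 FPKM (KO), against 10.6 FPKM in both libraries over all genes analysed. Hsp90ab1, the constitutive cytosolic HSP90, was the highest in each library (692 FPKM in WT against 696 FPKM in KO), followed by Calr, which encodes the ER lectin calreticulin (587 and 519 FPKM). Among the 83 genes compared in both libraries, levels spanned 1.08 FPKM to 692 FPKM in WT, and 16 genes reached 100 FPKM in both libraries. The order of levels was nearly the same, with 9 of the top 10 genes shared and a Spearman rho of 0.984 across the 87 genes listed in both, given as a description since genes are not replicates.

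**Figure D1:**
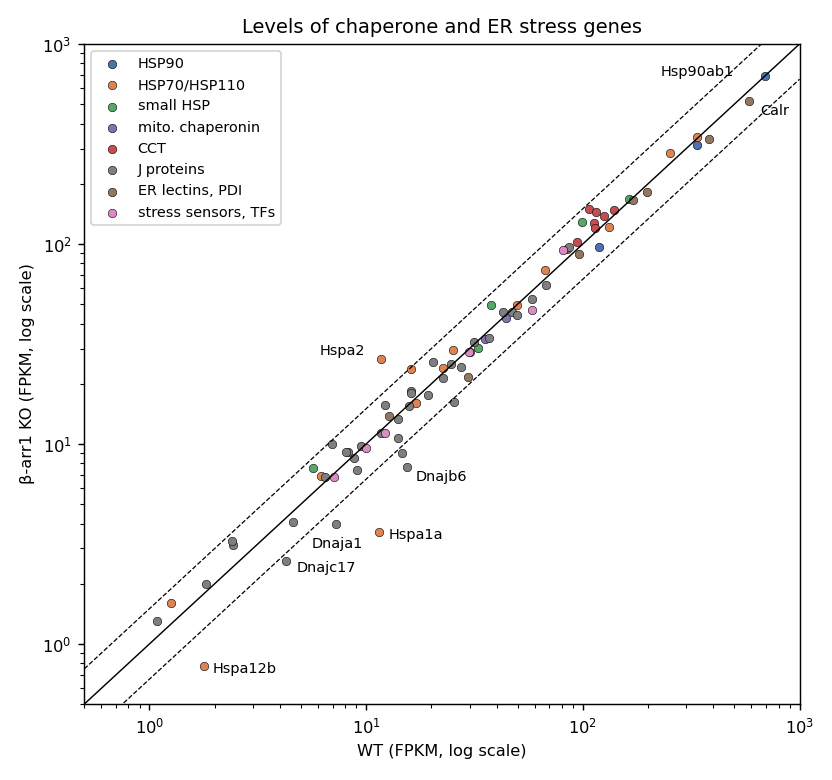
Level of each gene listed in both tables and at 1 FPKM or more in at least one library, in WT (x axis) and β-arr1 KO (y axis), both in FPKM on log scales, coloured by class. The solid line marks equal levels and the dashed lines ratios of 3/2 and 2/3. Most points follow the solid line from about 1 FPKM up to Hsp90ab1 at 692 and 696 FPKM, and Hspa1a, Hspa2, Hspa12b and Dnajb6 lie farthest from it.

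Between the genotypes, the ratio (KO over WT) exceeded 3/2 in 3 of the 85 genes, Hspa2, Hspa1b and Hspb2. It was below 2/3 in 7, Hspa1a, Hspa12b, Dnaja1, Dnajb6, Dnajc14, Dnajc17 and Dnajc30. Over all 12646 genes analysed, 9.56% were above and 8.28% below. In total 10 of the 85 genes (11.8%) were past a limit, where 17.8% of all genes were. These shares include genes listed in one table alone, which are past a limit by absence. Among genes listed in both tables, 9.64% of the chosen genes were past a limit, where 14.6% of all genes were. When 5 FPKM was required in one library or the other, 8 of 77 genes (10.4%) were past a limit, where 12.5% of all genes were. With only the rows that had the same start and end in both tables, 3 of 52 genes (Dnajb6, Dnajc17 and Dnajc30) were past a limit, all of them below 2/3, where 13.8% of all genes were. The median log2 ratio was 0.00 over the 83 genes listed in both tables and 0.02 over all such genes. The ratio was above 1 in 42 and below 1 in 41 of the 83, where 53.1% and 46.9% of all genes were. The interquartile range of the log2 ratio was 0.28 for the chosen genes and 0.37 for all genes. As a list, the chosen genes centred on equal levels. The share past a limit was below that of all genes in each of these counts, which share genes, with the smallest gap at 5 FPKM. The chosen genes had higher levels than all genes, and these shares were neither tested nor compared at matched levels.

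Of the 83 genes, 21 had an interval entirely above 1 and 22 one entirely below 1, and 7 of these were past a limit. For all genes these shares were 22.2% and 18.3%. The intervals narrow with depth, and high genes have narrow ones, so that Calr, with about 10982 and 10107 fragments, was set apart from 1 at a ratio of 0.885. The genes nearest the limits were Dnajc14 (0.634) and Hspa2 (2.27) outside and Sdf2l1 (0.731), Dnajc4 (0.764), Hspa4l (1.47) and Dnajc24 (1.43) inside.

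**Figure D2:**
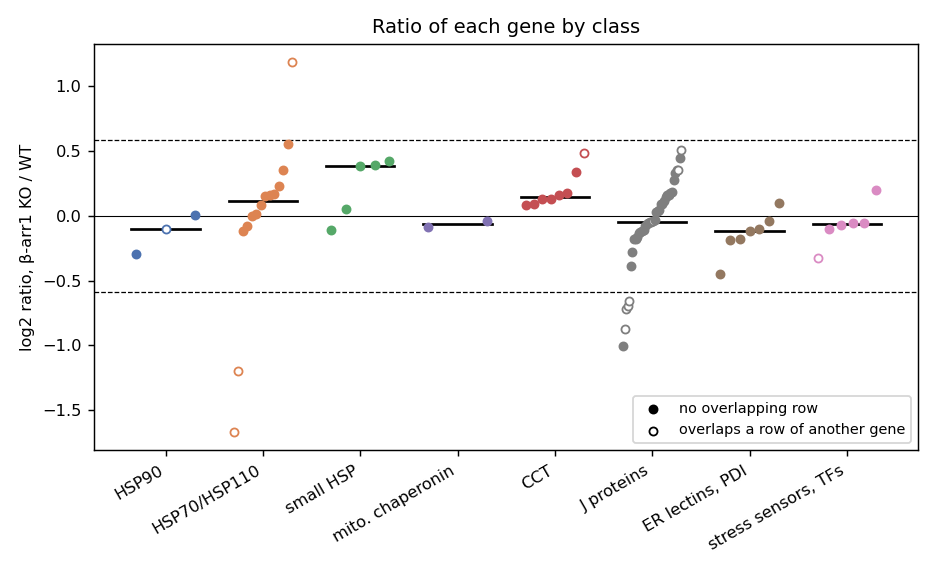
Log2 of the ratio, β-arr1 KO over WT (y axis), for each gene listed in both tables, by class (x axis), with a black bar at the class median and dashed lines at ratios of 3/2 and 2/3. Open circles are genes whose row overlaps a row of another gene. CCT subunits all lie above 0, ER lectins and disulfide isomerases lie below 0 except Pdia5, and of the 7 points below the lower dashed line only Dnajb6 is filled.

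The 3 HSP90 genes kept within the limits. Hsp90ab1 (chr17:45704727-45710254 of mm9, the row in WT) had a ratio of 1.01 (0.983 to 1.03). Hsp90aa1, the stress-inducible cytosolic form, had 118 FPKM in WT against 96.4 FPKM in KO, a ratio of 0.814 (0.774 to 0.855). Hsp90b1, the ER form known as GRP94, had 336 FPKM in WT against 313 FPKM in KO, a ratio of 0.932 (0.905 to 0.959). Between the cytosolic forms, the level of Hsp90ab1 exceeded that of Hsp90aa1 5.84-fold in WT and 7.21-fold in KO. Both cytosolic forms share sequence, and how Cufflinks divided reads between them was not tested.

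Among the 15 HSP70 and HSP110 genes, 2 were above 3/2, 2 were below 2/3 and the median log2 ratio was 0.12, with 10 of 14 higher and 4 lower in KO. Hspa5 had 338 FPKM in WT against 341 FPKM in KO, a ratio of 1.01 (0.979 to 1.04). Hspa8, the constitutive cytosolic HSP70, had 253 FPKM in WT against 284 FPKM in KO, a ratio of 1.12 (1.09 to 1.16). Hspa9, the mitochondrial form, had 131 FPKM in WT against 121 FPKM in KO, a ratio of 0.924 (0.881 to 0.969). These 3 forms were the highest of the family, and each stayed within the limits.
The cytosolic HSP110 genes, which act as exchange factors for HSP70, all had ratios above 1. Hspa4 had 66.6 FPKM in WT against 73.9 FPKM in KO, a ratio of 1.11 (1.05 to 1.17). Hsph1 had 25.1 FPKM in WT against 29.4 FPKM in KO, a ratio of 1.17 (1.08 to 1.27). Hspa4l had 16.1 FPKM in WT against 23.7 FPKM in KO, a ratio of 1.47 (1.37 to 1.58). Hyou1, their counterpart in the ER, had 49.5 FPKM in WT against 49.6 FPKM in KO, with a ratio of 1.00 (0.944 to 1.06), so of these 4 genes Hspa4l was farthest from 1, just inside the limit.

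The HSP70 genes past the limits were Hspa1a, Hspa1b, Hspa2 and Hspa12b, and for each of them a row of another gene overlapped the same locus in at least one table. Hspa1a and Hspa1b encode near-identical stress-inducible HSP70 proteins and are neighbours on chromosome 17. Hspa1a was listed at 11.5 FPKM in WT, in a row that ran from chr17:35093374 to 35109101 and so covered both genes, and Hspa1b was not listed there. In KO, Hspa1a had 3.62 FPKM (chr17:35106304-35109101) and Hspa1b 5.86 FPKM (chr17:35093374-35096183). The Hspa1a ratio was thus 0.314 (0.247 to 0.397), while both together had 11.5 FPKM in WT against 9.48 FPKM in KO, a ratio of 0.824. The joint level stood far below that of Hspa8 in both libraries.
Hspa2, known from germ cells, had 11.7 FPKM in WT (chr12:77505163-77507923) and 26.6 FPKM in KO, where its row began at 77471253 and covered the neighbour Zbtb1. Zbtb1, a transcriptional repressor gene, was listed at 16.6 FPKM in WT and was not listed in KO. The Hspa2 ratio was 2.27 (1.96 to 2.64), and that of the sum was 0.939, from 28.4 FPKM in WT against 26.6 FPKM in KO. Hspa12b, a distant HSP70 relative, had 1.78 FPKM in WT against 0.778 FPKM in KO, a ratio of 0.436 (0.258 to 0.718). The overlapping gene 1700037H04Rik, with 28.9 FPKM (WT) and 23.2 FPKM (KO), had a ratio of 0.802, and its level is too high for the sum (0.781) to bear on Hspa12b. For Hspa1a, Hspa1b and Hspa2, whose rows took in a neighbour in one table alone, the effect of row bounds on these values cannot be told apart from a difference between the libraries.

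**Figure D3:**
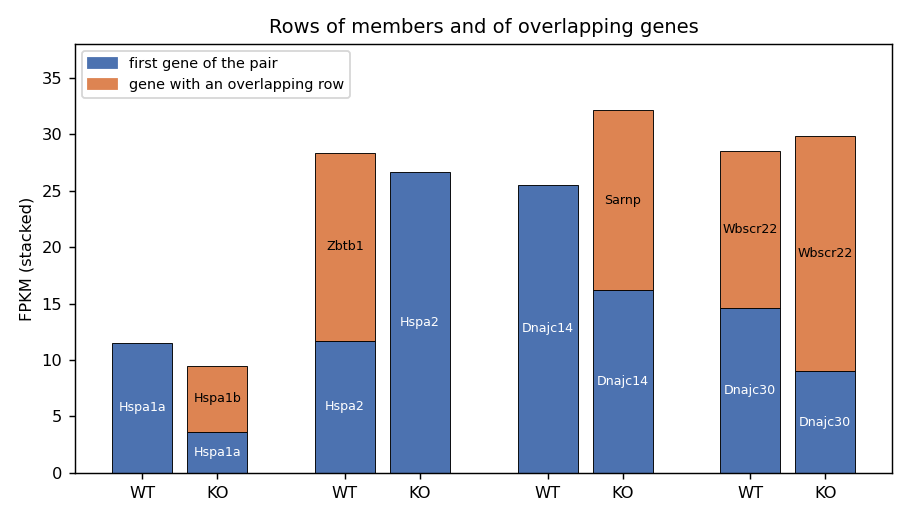
Stacked FPKM of the rows listed in WT and in β-arr1 KO (x axis) at 4 loci, with the chosen gene in blue and the gene of the overlapping row in orange. A missing segment is a gene not listed in that table. Stacks differ less than the blue segments do, as for Hspa2 with Zbtb1 (28.4 FPKM in WT against 26.6 FPKM in KO).

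Across the 85 genes, 14 (16.5%) had a row that overlapped a row of another gene, as did 16.3% of all genes analysed. Of the 10 past a limit 8 did (80%), where 30.8% of all genes past a limit did. The remaining 2 past a limit were Dnajb6 and Hspb2. Within the limits, the genes with such a row were Cct8, Ddit3, Dnajb3, Dnajc1, Dnajc24 and Hsp90b1. No test was made of these shares.

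Small heat shock proteins bind unfolding proteins without ATP, and several are high in muscle. Of the 8 genes, 6 were analysed, 1 was above 3/2 and none was below 2/3. The median log2 ratio over 5 genes was 0.39, with 4 higher and 1 lower in KO. Hspb1 (HSP27) had 163 FPKM in WT against 168 FPKM in KO, a ratio of 1.04 (0.955 to 1.12). Hspb8, a partner of the cochaperone Bag3 in selective autophagy, had 98.6 FPKM in WT against 129 FPKM in KO, a ratio of 1.31 (1.22 to 1.40). Hspb6 had 37.7 FPKM in WT against 49.3 FPKM in KO, a ratio of 1.31 (1.18 to 1.45). Both had intervals above 1, as had a lower gene of the family, since Hspb7, known as the cardiovascular form, had 5.69 FPKM in WT against 7.61 FPKM in KO, a ratio of 1.34 (1.07 to 1.68).
Hspb11, a component of intraflagellar transport, had 32.7 FPKM in WT against 30.3 FPKM in KO, a ratio of 0.926 (0.804 to 1.07). Hspb2, a muscle form, was listed at 22.2 FPKM in KO (chr9:50559177-50560459) and was not listed in WT. Hspb3, another muscle form, had 0.172 FPKM in WT against 0.830 FPKM in KO, under the minimum in both. Cryab, the neighbour of Hspb2 that encodes αB-crystallin, had 507 FPKM in WT against 409.9 FPKM in KO, a ratio of 0.808 (0.775 to 0.843), so this gene did not follow Hspb6, Hspb7 and Hspb8. Striated muscle markers were higher in the same library. Of 16 such markers 15 were listed, 12 were higher in KO and 9 were above 3/2, and their sum was 3.87 times that of WT. Acta1 had 5.95 FPKM in WT against 28.4 FPKM in KO, Tnnc1 2.38 FPKM and 24.7 FPKM, and Myog 0.160 FPKM and 4.12 FPKM, while Ckm stayed at 0.0842 FPKM and 0.409 FPKM. Their part in the small heat shock protein levels was not tested.

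CCT is built of rings of 8 different subunits and folds actin and tubulin, and all 8 subunit genes, counting Cct6a and leaving out the testis form Cct6b, were higher in KO. None passed 3/2. Their levels lay within 1.65-fold of each other in WT and 1.58-fold in KO and the coefficient of variation was 15.4% and 16.5%.  The largest difference was in Cct8 (chr16:87483570-87496114), with 107 FPKM in WT against 149.6 FPKM in KO, a ratio of 1.40 (1.33 to 1.48). Its row overlapped that of Usp16 by 189 bases in both libraries, and the sum gave 1.36. Tcp1, which encodes the α subunit, had 115 FPKM in WT against 145 FPKM in KO, a ratio of 1.27 (1.21 to 1.32). The remaining subunits lay closer to 1.
Cct3 had 113 FPKM in WT against 127 FPKM in KO, a ratio of 1.13 (1.08 to 1.18). Cct4 had 84.6 FPKM in WT against 94.5 FPKM in KO, a ratio of 1.12 (1.05 to 1.19). Cct5 had 126 FPKM in WT against 138 FPKM in KO, a ratio of 1.10 (1.03 to 1.16). These are subunits in the middle of the range.
Cct7 had 93.7 FPKM in WT against 102 FPKM in KO, a ratio of 1.09 (1.03 to 1.16). Cct2 had 139.6 FPKM in WT against 148 FPKM in KO, a ratio of 1.06 (1.005 to 1.12). Cct6a had 113 FPKM in WT against 120.1 FPKM in KO, a ratio of 1.06 (0.987 to 1.14), and its interval alone included 1. The median log2 ratio of the 8 genes was 0.15, and all 8 stayed higher in KO when the KO library was rescaled to the same FPKM total, median ratio or upper quartile. Prefoldin, which hands nascent actin and tubulin to CCT, had 5 subunit genes listed, 2 higher and 3 lower in KO with none past a limit. Its median log2 ratio was -0.00.
The mitochondrial chaperonin genes differed by less than their counting error. Hspd1 had 44.0 FPKM in WT against 42.8 FPKM in KO, a ratio of 0.973 (0.887 to 1.07). Hspe1 had 35.4 FPKM in WT against 33.4 FPKM in KO, a ratio of 0.944 (0.792 to 1.13). The level of Hspd1 was 1.24 times that of Hspe1 in WT and 1.28 times in KO, so the ratio of barrel to lid message was almost the same in both libraries. Of the 8 mitochondrial chaperone genes listed for comparison 6 were present in the tables, with 2 higher and 4 lower in KO and none past a limit. That list leaves out the mitochondrial J protein gene Dnajc30, which was below 2/3 and is described with the J proteins.

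**Figure D4:**
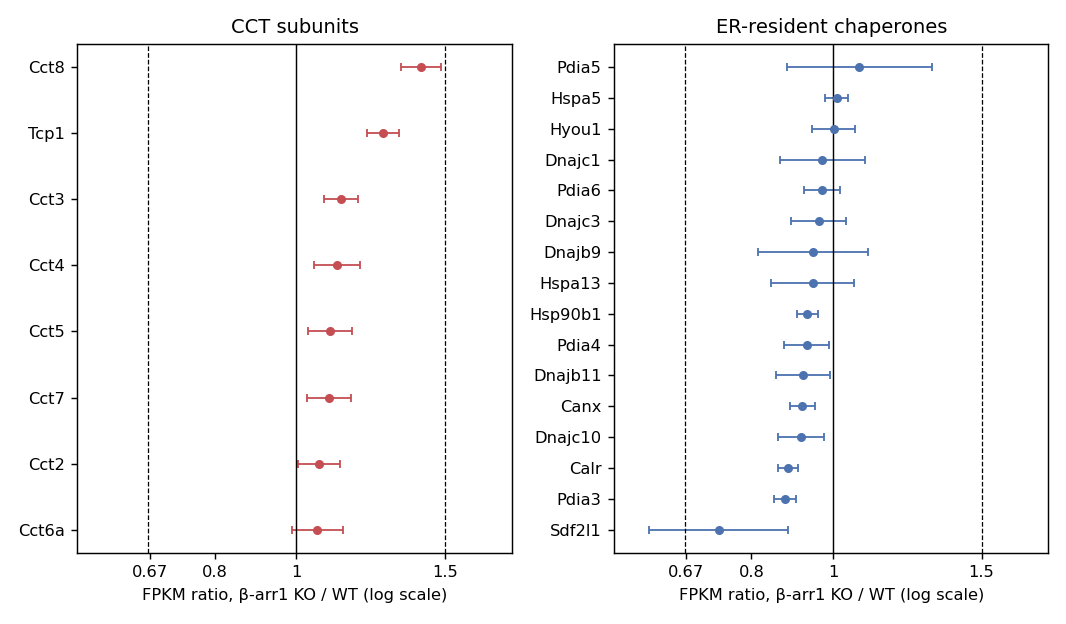
Ratio, β-arr1 KO over WT (x axis, log scale) for the 8 CCT subunits and the 16 ER-resident chaperones (y axes), with 95% intervals of counting error as bars and dashed lines at 2/3 and 3/2. All 8 CCT points lie to the right of 1, up to Cct8 at 1.40, and 13 of the 16 ER points lie to the left, down to Sdf2l1 at 0.731.

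J proteins carry clients to HSP70 and trigger its ATPase. Of the 40 J protein genes 38 were analysed, none was above 3/2 and 5 were below 2/3. The median log2 ratio was -0.05, with 17 higher and 21 lower in KO. Dnajb6 (chr5:30062438-30113018), which encodes a suppressor of polyglutamine aggregation, had 15.4 FPKM in WT against 7.69 FPKM in KO, a ratio of 0.499 (0.419 to 0.592) from about 395 and 203 estimated fragments. It was the one gene past a limit whose row had the same bounds in both tables and overlapped no other gene.
The other 4 J protein genes past the limit overlapped rows of neighbours. Dnaja1, a main cytosolic cochaperone, had 7.29 FPKM in WT against 3.97 FPKM in KO, a ratio of 0.545 (0.457 to 0.647), and Smu1, with a row of its own in both tables, had 35.8 FPKM and 44.9 FPKM, a ratio of 1.25. Dnajc14 had 25.5 FPKM in WT against 16.2 FPKM in KO, a ratio of 0.634 (0.573 to 0.702), and its WT row covered Sarnp, listed at 15.9 FPKM in KO alone. The sum with Sarnp and Ormdl2 gave 1.20.
Dnajc30, a mitochondrial J protein, had 14.6 FPKM in WT against 9.02 FPKM in KO, a ratio of 0.617 (0.466 to 0.814). The KO row of its neighbour Wbscr22 covered it, at 20.8 FPKM against 13.9 FPKM in WT, and the sum gave 1.05. Dnajc17, at 4.26 FPKM in WT against 2.60 FPKM in KO, had a ratio of 0.609 (0.335 to 1.08), which was 0.683, inside the limit, with a pseudocount of 1 FPKM. Its neighbour Zfyve19 had 7.01 FPKM and 9.71 FPKM, a ratio of 1.38. For Dnaja1, Dnajc17 and Dnajc30 the gene and its neighbour were listed in both tables. A sum thus mixes both genes and does not bear on the ratio of the chosen gene alone. The Wbscr22 row covered all of Dnajc30 in KO and part of it in WT, and what this did to the values was not tested.
Among the J proteins named for their role, Dnajb1 (HSP40), the main stress-inducible partner of HSP70, had 24.7 FPKM in WT against 25.2 FPKM in KO, a ratio of 1.02 (0.898 to 1.16). The list of heat-inducible genes (Hspa1a, Hspa1b, Hspb1, Hsph1, Dnajb1, Dnaja1, Hsp90aa1, Hspa8, Hspd1, Hspe1 and Hspa4l) also holds Hspa8, named above as a constitutive form. Of these 11 genes, 1 was above 3/2 and 2 were below 2/3. Those 3 were Hspa1b, Hspa1a and Dnaja1, all with overlapping rows, and the median log2 ratio was -0.01, with 5 higher and 5 lower in KO. The 4 genes with a heat shock element shown above had ratios of 0.499 (Dnajb6), 1.17 (Hsph1), 0.973 (Hspd1) and 0.944 (Hspe1), on both sides of 1.

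ER-resident chaperones, 16 genes that fold secreted and membrane proteins, were lower in KO in 13 of 16 genes, and none was past a limit. Their median log2 ratio was -0.09, and 8 had an interval below 1 and none above. Together they summed to 2407 FPKM in WT against 2224 FPKM in KO, a ratio of 0.924. Rescaling of the KO library left 13 to 15 of the 16 lower. Fibroblast markers were lower in the same library, as given above, and their part in these levels was not tested. Calr, Canx and Pdia3, which form the folding cycle for glycoproteins, had narrow intervals below 1.
Calr (chr8:87365987-87370830) had the ratio 0.885 (0.861 to 0.909) at the levels given above. Its membrane-bound partner Canx (calnexin) had 197 FPKM in WT against 181 FPKM in KO, a ratio of 0.920 (0.888 to 0.952). Pdia3 (ERp57), the disulfide isomerase that works with both lectins, had 383 FPKM in WT against 336 FPKM in KO, a ratio of 0.876 (0.851 to 0.903). All 3 intervals lay within the limits and left out 1.
Pdia4 had 95.5 FPKM in WT against 88.8 FPKM in KO, a ratio of 0.930 (0.874 to 0.990). Pdia6 had 171 FPKM in WT against 166 FPKM in KO, a ratio of 0.970 (0.924 to 1.02). Pdia5 had 12.8 FPKM in WT against 13.7 FPKM in KO, a ratio of 1.07 (0.881 to 1.31). Of these disulfide isomerases Pdia5 was the only one with a ratio above 1, and its interval included 1.
Sdf2l1, a partner of the J protein Dnajb11 in the ER, had 29.6 FPKM in WT against 21.7 FPKM in KO, a ratio of 0.731 (0.605 to 0.884), the lowest of the list. Dnajb11 itself had 67.6 FPKM in WT against 62.2 FPKM in KO, a ratio of 0.921 (0.855 to 0.991). Dnajc3 (p58IPK), an inhibitor of PERK and a BiP cochaperone, had 30.1 FPKM in WT against 28.9 FPKM in KO, a ratio of 0.961 (0.892 to 1.04). Dnajb9 (ERdj4), a known Xbp1 target, had 22.6 FPKM in WT against 21.4 FPKM in KO, a ratio of 0.946 (0.814 to 1.10). The 6 genes with an ER stress element in the promoter shown above (Hspa5, Hsp90b1, Calr, Canx, Pdia6 and Dnajc3) had ratios from 0.885 to 1.01, within the range of the ER-resident genes as a whole.

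The 6 sensors and transcription factors of the ER stress response were all within the limits, with 1 higher and 5 lower in KO and a median log2 ratio of -0.06. Ern1 had 7.11 FPKM in WT against 6.83 FPKM in KO, a ratio of 0.961 (0.841 to 1.10). Eif2ak3 had 10.0 FPKM in WT against 9.53 FPKM in KO, a ratio of 0.953 (0.828 to 1.10). Atf6 had 12.2 FPKM in WT against 11.4 FPKM in KO, a ratio of 0.930 (0.843 to 1.03). None of the 3 sensors differed beyond counting error.
Xbp1 had 29.9 FPKM in WT against 28.8 FPKM in KO, a ratio of 0.964 (0.855 to 1.09), and gene-level values do not show how much of it was spliced by IRE1. Atf4, the transcription factor of the integrated stress response, had 81.2 FPKM in WT against 93.4 FPKM in KO, a ratio of 1.15 (1.06 to 1.25). Ddit3 had 58.3 FPKM in WT against 46.5 FPKM in KO, a ratio of 0.797 (0.692 to 0.919). Its row overlapped that of Mars by 68 bases in both libraries, and the sum gave 0.836. Atf4 and its known target Ddit3 thus lay on opposite sides of 1.

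Further lists gave the genes around these pathways. Of 26 genes of the unfolded protein response and ER-associated degradation, 7 were higher and 19 lower in KO, with a median log2 ratio of -0.09. This list also holds Dnajb9, a chosen gene already counted above among those lower in KO. The one past a limit was Manf, a secreted factor that ER stress is known to induce, with 168 FPKM in WT against 60.1 FPKM in KO, a ratio of 0.356 (0.333 to 0.381). The WT row of Vprbp, at 4.03 FPKM, overlapped Manf, and the sum gave 0.394, so Manf stayed below 2/3. In the same list P4hb, a disulfide isomerase gene, had 307 FPKM in WT against 296 FPKM in KO.
Of 22 integrated stress response genes, 1 was above 3/2 and 3 were below 2/3, with a median log2 ratio of -0.16 and 6 higher and 15 lower in KO among 21 listed in both. Slc3a2, a subunit of amino acid exchangers, had 104 FPKM in WT against 159.9 FPKM in KO, a ratio of 1.54 (1.46 to 1.62). Its partner Slc7a11, the cystine carrier, had 5.75 FPKM in WT against 3.05 FPKM in KO, a ratio of 0.530 (0.454 to 0.617). Nupr1, a stress-induced transcriptional regulator, had 62.0 FPKM in WT against 36.1 FPKM in KO, a ratio of 0.582 (0.532 to 0.636). Both subunits of the exchanger, known targets of Atf4, thus lay on opposite sides. Eif2ak2, the kinase PKR, was listed at 68.0 FPKM in WT alone, and a KO row named Gm6548 covered its locus at 60.6 FPKM. Eif2ak2 is among the genes counted below 2/3, while both rows together had a ratio of 0.890.
Of 26 heat shock factors and cochaperones, 1 was above 3/2 and 2 were below 2/3, with a median log2 ratio of -0.06 and 8 higher and 17 lower in KO among 25 listed in both. Serpinh1 (HSP47), the collagen chaperone of the ER, had 388 FPKM in WT against 245 FPKM in KO, a ratio of 0.631 (0.610 to 0.654). Col1a1, which encodes a chain of its client collagen, had 420.5 FPKM in WT against 237 FPKM in KO, a ratio of 0.564 (0.552 to 0.577), and the part of fibroblast markers in the Serpinh1 level was not tested. Hspbp1, an exchange factor for HSP70, was listed at 18.9 FPKM in KO alone, and a WT row named Ppp6r1 covered it at 51.5 FPKM. Hspbp1 is the gene counted above 3/2, while both rows together had a ratio of 1.09. The second gene below the limit was Hsf4, at 1.47 FPKM in WT against 0.454 FPKM in KO. Hsf1, the main heat shock factor, had 24.5 FPKM in WT against 16.8 FPKM in KO, a ratio of 0.686 (0.591 to 0.794), just inside the limit. Hsf1 was named after its value was seen.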

How the data were processed

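Gene expression was measured by RNA-seq in DG astrocytes, 1 WT and 1 β-arr1 KO library, grouped by the genotype in the labels. The authors aligned paired reads to mm9 with TopHat (version 1.4.0 in the submitters' processing notes) and estimated expression with Cufflinks, whose version, annotation and strand setting are not given in the sources used here. The deposited values are FPKM, 1 per gene and library, so transcript length and library size are accounted for, and genes at 0 are not listed. A gene not listed need not be at 0, however. The loci of Hspa1b, Zbtb1, Eif2ak2 and Hspbp1 lay mostly in rows of other symbols where these genes were not listed. One was added to each start of the mm9 loci.

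The tables were joined by symbol, taking the row of highest FPKM where a symbol had several and 0 for a gene not listed. Genes with 1 FPKM or more in at least one library were compared by the ratio KO vs. WT without a pseudocount, against the study's limits of 3/2 and 2/3. Depth was estimated from values under 0.15 FPKM of genes with 1 annotated transcript longer than 1000 bases, of which 71.5% (WT, 411 genes) and 72.0% (KO, 428 genes) lay within 5% of a step of 1 to 3 fragments. Fragments per gene followed from the longest GENCODE transcript, and 95% intervals (Clopper-Pearson) cover counting error only, not reads shared between copies or differing row bounds. The computation was tested on simulated data. Values of overlapping rows were summed in FPKM, whatever their lengths. Promoters came from RefSeq (GRCm38.p6) and were matched by symbol, and no coordinate was converted between builds.

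Named genes were those past a limit at 5 FPKM or more or listed in one table only, the 10 highest, the members of the small classes and known stress genes, and, of the pathway lists, those past a limit at 5 FPKM or more. Others are markers, neighbours or genes named after their values were seen (Hspa12b, Dnajc17, Hsf1, Hsf4, P4hb, Col1a1, Cryab and Hspb3). Members, lists and tests were chosen with earlier results of these data known. Alternatives were other minima, pseudocounts, rescalings, limits and row choices. Software was Python 3.11.15 with pandas 2.3.3, numpy 2.4.6 and scipy 1.17.1, and matplotlib 3.10.9 for plots.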

Additional observations from a re-analysis of the deposited data

How the results depend on the processing

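The count above 3/2, 3 genes, was 7 with a minimum of 0.1 FPKM, 6 with 0.5 FPKM, 1 with 1 FPKM in both libraries or with genes listed in both tables, and 0 with the same row bounds. The count below 2/3, 7 genes, was 8 with a minimum of 0.1 FPKM, 5 with 5 FPKM and 6 with 1 FPKM in both libraries. It was 6 with a pseudocount of 1 FPKM, where Dnajc17 came to 0.683, and 3 with limits of 2 and 1/2. With the same row bounds it was 3. With overlapping rows summed it was 2, namely Dnajb6, which has no such row, and Dnajb3, whose own ratio was 1.28. The count above 3/2 was then 2, namely Hspb2 and Dnajc24, whose ratio went from 1.43 to 1.75. Summing was added after the data had been seen. That sum turned the ratios of Dnaja1 (1.13), Dnajc1 (1.12), Dnajc14 (1.20), Dnajc17 (1.11), Dnajc30 (1.05), Dnajb3 (0.633) and Hspa2 (0.939). It moved Hspa1a to 0.824 and Hspa12b to 0.781, both inside the limits. The Dnaja1 sum is mostly the Smu1 row, and the sums of Dnajb3 and Hspa12b are mostly rows of neighbours. The median log2 ratio of the chosen genes lay between -0.03 and 0.02 in every setting tried, with either sign. None of 48 genes named by rule crossed a limit under the 6 pseudocounts, rescalings and symbol sums planned for each, with Dnajb6 between 0.490 and 0.529. These 48 do not include Dnajc17 and Hspa12b, nor Hspa1b and Hspb2, which were listed in KO alone. No paired analysis was possible because each genotype had 1 library, and for the same reason no library could be left out.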
